A study of Mus musculus with 2 samples.

Results

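The genes described here are *Pf4* (platelet factor 4, also called Cxcl4) and *Ppbp* (pro-platelet basic protein, also called Cxcl7), 2 of the 7181 genes listed for the WT library and of the 6735 listed for the Cko library. They were taken by name, together with every cell that held at least 10 UMIs of either one, where a UMI stands for 1 captured RNA molecule. These high cells numbered 36 of 6271 in WT and 19 of 3662 in Cko. Their *Pf4* and *Ppbp* counts are what selected them and are given as a description. The BMCs were from crushed forelimbs and hindlimbs of C57BL6/J mice at postnatal day 21. The Cko mouse lacked S1P (site-1 protease, gene *Mbtps1*) in the Osterix lineage, since both floxed alleles of the gene were combined with the Osx1-GFP::Cre transgene, and the WT mouse carried the floxed alleles with no Cre. The Osterix promoter drives Cre in bone-forming cells and their precursors. The authors propose that it is also active in the hematopoietic lineage, and they report loss of the floxed exon in sorted Cko neutrophils. Whether the cells described here had lost it was not tested. Each genotype was 1 mouse and 1 library, so the mouse, the library and the genotype cannot be told apart. Red blood cells were lysed before the cells were loaded.

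*Pf4* and *Ppbp* encode small CXC chemokines that megakaryocytes make and pack into the α-granules of platelets. Megakaryocytes are the large, polyploid cells of the bone marrow that shed platelets into the blood. On platelet activation both proteins are released. Pf4 binds heparin and other glycosaminoglycans, and cleavage of the Ppbp precursor gives a chemokine that attracts neutrophils through the receptor Cxcr2. Transcripts of both genes are widely used to recognise megakaryocytes and platelets.

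The 2 genes are neighbours on mouse chromosome 5 and are read from the same strand. In GENCODE (GRCm38), *Ppbp* lies at 90768518 to 90770063 and *Pf4* at 90772435 to 90773383, with 2371 bases between them. *Cxcl5*, another CXC chemokine gene, lies before *Ppbp* at 90759360 to 90761624, and *Cxcl3* and *Cxcl15* follow *Pf4*. The 250 bases before each start are shown because the genes were detected in the same cells. They are from RefSeq (GRCm38.p6, plus strand, chr5:90768268-90768517 for *Ppbp* and chr5:90772185-90772434 for *Pf4*). Capitals mark the core letters of the ETS motif (GGAAG, read here as CTTCC on the other strand) and the TATA box letters TATAAA.
Ppbp: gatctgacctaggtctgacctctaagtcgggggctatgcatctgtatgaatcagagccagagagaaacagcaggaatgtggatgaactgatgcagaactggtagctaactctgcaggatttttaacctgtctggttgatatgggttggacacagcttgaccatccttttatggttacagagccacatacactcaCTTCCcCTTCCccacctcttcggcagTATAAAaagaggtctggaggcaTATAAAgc
Pf4: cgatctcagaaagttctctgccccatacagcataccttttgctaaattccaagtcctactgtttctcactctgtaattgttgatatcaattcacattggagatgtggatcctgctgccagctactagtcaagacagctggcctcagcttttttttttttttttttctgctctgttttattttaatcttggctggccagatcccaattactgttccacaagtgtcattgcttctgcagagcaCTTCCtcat
The ETS letters stood 9 bases before the start of *Pf4* and at 50 and 56 bases before that of *Ppbp*. TATAAA stood only in the *Ppbp* window, at 30 and at 8 bases before the start. The GATA letters GATAA were searched on both strands and were in neither window. Of 32851 RefSeq promoter windows of the same length, 64.1% held the ETS letters, 12.4% held TATAAA and 22.6% held GATAA. The 3 motifs do not overlap in these windows.

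*Pf4* was concentrated in a small number of cells. In WT, 5818 cells held no *Pf4* UMI, 362 held 1, 38 held 2 and 17 held 3 to 9. Above that range, 10 WT cells held at least 10 but under 100 UMIs, 19 held at least 100 but under 1000 and 7 held at least 1000, with a highest value of 3681. In Cko, 3538 cells held none, 95 held 1, 4 held 2 and 6 held 3 to 9, and 6, 10 and 3 cells filled the 3 upper ranges up to 2315 UMIs. In both libraries more cells fell into the second of these upper ranges than into the lowest.

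*Ppbp* was found in fewer cells. In WT, 165 cells held 1 UMI, 8 held 2, 3 held 3 to 9, 9 held at least 10 but under 100 and 7 held from 100 up to 917. In Cko, 35 cells held 1 UMI, 2 held 2, 1 held 3 to 9, 2 held at least 10 but under 100 and 4 held from 100 up to 513. No cell of either library reached 1000 *Ppbp* UMIs. The lowest counts inside the limit of 10 were 13, 15 and 22 *Pf4* UMIs in WT and 10, 10 and 13 in Cko. The highest counts outside it were 9 UMIs, in 4 WT cells and in 1 Cko cell.

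**Figure D1:**
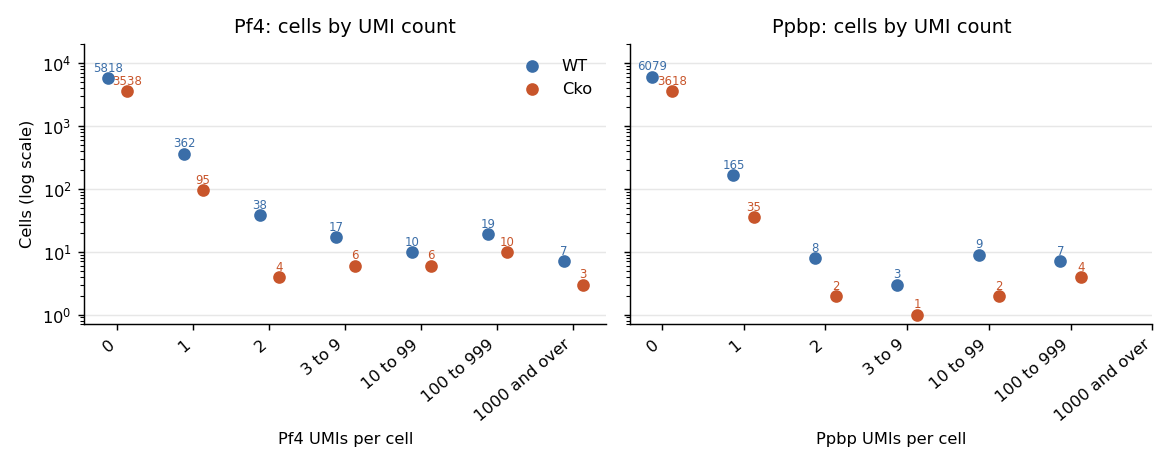
Number of cells (log scale) by UMIs per cell of *Pf4* (left) and *Ppbp* (right) in WT (blue) and Cko (orange), with the cell count printed at each point and no point where it was 0. Most cells held no UMI, and 7 WT and 3 Cko cells held at least 1000 *Pf4* UMIs.

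The high cells carried nearly all transcripts of both genes. In WT, 21940 of 22467 *Pf4* UMIs (97.7%) were in them, and in Cko 8145 of 8281 (98.4%). For *Ppbp* the numbers were 4494 of 4667 UMIs in WT (96.3%) and 1640 of 1674 in Cko (98.0%). In the cell with the largest share, *Pf4* made up 9.46% of all UMIs in WT and 7.27% in Cko, and *Ppbp* up to 2.57% and 5.24%. A few cells dominated each sum: the top cell accounted for 16.4% of *Pf4* UMIs in WT and for 28% in Cko, and the top 5 cells for 72.2% and 93.2% of *Ppbp* UMIs.

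Every cell with at least 10 *Ppbp* UMIs also had at least 10 *Pf4* UMIs, 16 of 16 in WT and 6 of 6 in Cko. The reverse did not hold, since 36 WT and 19 Cko cells reached 10 *Pf4* UMIs. *Ppbp* was at 0 in 12 of the 36 WT and in 9 of the 19 Cko high cells. *Ppbp* exceeded *Pf4* in 1 high cell of each library, with 877 against 865 UMIs in WT and 417 against 397 in Cko. Over all cells, 40 of 192 WT cells with a *Ppbp* UMI also held *Pf4* (20.8%; 15.3 to 27.3), and 6.79% of WT cells without *Ppbp* held it (6.17 to 7.46). In Cko the same shares were 25% (11 of 44 cells; 13.2 to 40.3) and 3.12% (2.58 to 3.74). Outside the high cells the 2 genes met in 16 of 168 WT cells with *Ppbp*, or 9.52% (5.54 to 15.0), against 6.61% of the cells without it (6.0 to 7.26), and these intervals overlapped. In Cko they met in 1 of 34 cells, or 2.94% (0.0744 to 15.3), against 2.88% (2.36 to 3.48).

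The high cells were read against core megakaryocyte genes, a list that does not hold the members and of which 15 of 17 genes were listed in both libraries. *Tubb1* and *Cavin2* had no row, and Cavin2 is present under its older symbol *Sdpr*. At least 4 core genes were detected in 32 of 36 WT and 15 of 19 Cko high cells, which are called megakaryocyte-marker cells here. The median was 12 core genes in these cells of both libraries, and the median over all cells was 0. Of all *Pf4* UMIs, 97.3% in WT and 97.7% in Cko lay in these cells, as did 96.3% and 97.8% of the *Ppbp* UMIs.

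Levels in the high megakaryocyte-marker cells were far above those in all cells that were not high. The cells had to hold at least 4 core genes, so higher core levels in them are in part fixed by that choice. *Gp1bb*, a subunit of the von Willebrand factor receptor on platelets, was at 20.8 UMIs per 10000 UMIs in WT and 23.8 in Cko, against 0.00772 and 0.0138 in the other cells. *Itga2b*, the α subunit of the platelet fibrinogen receptor, was at 13.7 and 8.86 against 0.00933 and 0.0185. *Clec1b*, the podoplanin receptor, was at 12.8 and 16.6 against 0.00395 and 0.00616. *Vwf*, von Willebrand factor itself, was at 6.26 and 2.77 against 0.0309 and 0.0114. *Pf4* stood above all of these, at 371 and 316 UMIs per 10000. Since 3′ libraries count 1 tag per transcript, levels of different genes were compared without a correction for length, and *Pf4* was at 17.8 and 13.3 times the level of the highest core gene. *Ppbp* was at 76.3 and 63.9 UMIs per 10000.

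The shares of UMIs outside the high cells are given for the members and the core genes as a description. The share of *Pf4* UMIs outside the high cells was 2.35% in WT and 1.64% in Cko, and all 15 core genes had a larger share in both. For *Ppbp* the share was 3.71% and 2.03%, with a larger share in 13 and in 15 of the 15 core genes. Core shares ran from 2.83% (*Clec1b*) to 48.0% (*Gp9*) in WT, and the lowest in Cko was 4.71% (*Clec1b*). The high cells were picked on the members, so the low shares of the members are in part set by that choice. A core gene had no such limit in the cells outside, so the shares do not compare like with like.

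The other fixed lists gave the lineage of the cells from the opposite side. In the 32 WT and 15 Cko high megakaryocyte-marker cells, the median level of the B cell, macrophage, T/NK and stromal lists was under 1 UMI per 10000, and no such cell reached the 5th percentile of the class each list defines. Hemoglobin and other erythroid genes exceeded 1000 UMIs per 10000 in 3 WT cells and 1 Cko cell, and in 1 of those WT cells they made up 4207 per 10000 beside 30 *Pf4* and 9 *Ppbp* UMIs. Neutrophil genes made up 4181 per 10000 in 1 further WT cell that held 163 *Pf4* and 27 *Ppbp* UMIs. None of the high cells was called a doublet, and none of the 28 barcodes shared by both libraries was a high cell. Whether these cells were mixed droplets was not tested.

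Clustering without the members put 32 of 36 WT and 16 of 19 Cko high cells into a cluster of 1082 WT and 1193 Cko cells that *Ctsg*, *Mpo* and *Elane* led and that stayed unnamed. At a finer resolution 32 and 15 of them fell together into a group of 159 WT and 194 Cko cells led by *Ctla2a*, *Plek* and *Tsc22d1*. No cluster was megakaryocyte-like by the naming rule. With each library clustered on its own, 86.1% of the WT high cells fell into a cluster named monocyte-like, led by *Ms4a6c*, *F13a1* and *Ccr2*. Of the Cko high cells, 78.9% fell into an unnamed one. *Plek* (pleckstrin, a platelet signalling protein) is on the platelet list. High cells were a small share of the large joint cluster, and 32 of 159 WT and 15 of 194 Cko cells of the finer group.

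Cells that met the core gene rule without being high were few. Of 38 WT megakaryocyte-marker cells, 6 were not high, with 9, 9, 9, 3, 0 and 0 *Pf4* UMIs, and of 20 Cko ones 5 were not, with 9, 1, 1, 1 and 0. None of these 11 cells held a *Ppbp* UMI. *Pf4* was higher in cells with more core genes, at 82.9 UMIs per 10000 in WT cells with 4 to 9 core genes, 276 with 10 to 13 and 515 with 14 or 15. The Cko values were 39.9, 201 and 572. *Ppbp* was at 8.40, 8.21 and 146 in WT and at 8.29, 0.465 and 173 in Cko over the same 3 ranges. Of the 16 WT cells with at least 10 *Ppbp* UMIs, 10 held 14 or 15 core genes, and of the 6 Cko cells 5 did. Deeper cells can show more core genes, and the median depth of the 3 ranges was 8621, 16284 and 23273 UMIs in WT and 9392, 20456 and 16052 in Cko.

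**Figure D2:**
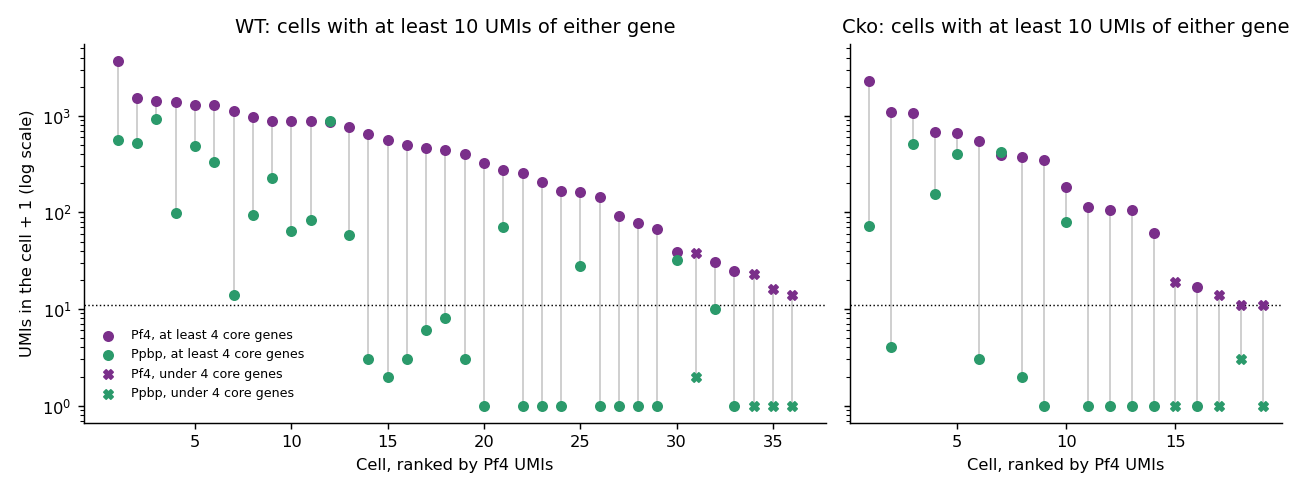
*Pf4* (purple) and *Ppbp* (green) UMIs plus 1 (log scale) in each high cell of WT (left, 36 cells) and Cko (right, 19 cells), ranked by *Pf4*, with a grey line joining the 2 values of a cell and crosses for cells with under 4 core genes. The dotted line is the limit of 10 UMIs, and *Ppbp* lies above it in 16 WT and 6 Cko cells.

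The high megakaryocyte-marker cells fell into a *Ppbp*-rich and a *Ppbp*-poor set at the limit of 10 *Ppbp* UMIs, a division made after the values were seen. In WT, 16 cells were rich, with a lowest, median and highest *Ppbp* count of 13, 95 and 917, and 16 were poor, with 0 to 9. In Cko, 6 cells were rich, with 72, 78, 154, 398, 417 and 513 *Ppbp* UMIs, and 9 were poor, with 0 in 6 cells and 1, 2 and 3 in the others. The poor cells still held much *Pf4*, from 24 to 641 UMIs in WT and from 16 to 1106 in Cko. The *Pf4* counts of the rich and poor cells overlapped, since rich cells held 38 to 3681 in WT and 183 to 2315 in Cko.

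As a level, *Pf4* had a median of 408 UMIs per 10000 in the rich and 193 in the poor WT cells, and of 467 and 122 in the Cko cells. The median *Ppbp* level of the rich cells was 62.8 UMIs per 10000 in WT and 151 in Cko. *Pf4* exceeded *Ppbp* 3.91-fold (3.78 to 4.04) in the summed UMIs of the rich WT cells and 157-fold (108 to 236) in those of the poor ones. The Cko ratios were 3.26 (3.08 to 3.45) and 463 (212 to 1262). The division uses *Ppbp* itself, so the gap between these ratios is set by it. Depth did not follow the division in the same way in both libraries, with a median of 22558 UMIs in rich and 14031 in poor WT cells and of 12722 and 17250 in Cko.

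The *Ppbp*-rich cells held more core megakaryocyte transcripts. The 15 core genes summed to 169 UMIs per 10000 in rich and 35.7 in poor WT cells, a ratio of 4.73 (4.38 to 5.11), and to 249 and 23.3 in Cko, a ratio of 10.7 (9.55 to 11.9). Cell by cell the ranges overlapped, from 16.1 to 501 in rich and from 11.3 to 259 in poor WT cells, and from 36.2 to 487 and 8.95 to 59.1 in Cko. Fold limits and log2 differences between rich and poor cells are on the scale of log2(UMIs per 10000 + 0.2), which understates the change of low genes. On it 14 of 15 core genes were at least 2-fold higher in the rich WT cells beside 9.62% of 5999 genes, and in Cko all 15 were, beside 14.3%. The WT exception was *Gp6*, the platelet collagen receptor, at 0.869 UMIs per 10000 in rich and 0.430 in poor cells, a plain ratio of 2.02. The median log2 difference of the list was 2.04 in WT and 3.07 in Cko, and that of all genes was −0.02 and −0.12. The 5999 genes are all genes listed in both libraries but the members, with no least UMI count. Low genes can therefore lower the shares of 9.62% and 14.3%. All these values are descriptions of cells of 1 library each.

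Among core genes the integrin subunit *Itgb3* differed most in WT, at 21.0 UMIs per 10000 in the rich and 1.0 in the poor cells, with 16.2 and 1.15 in Cko. *Alox12*, the platelet 12-lipoxygenase, was at 8.47 and 0.765 in WT and at 23.1 and 0.0637 in Cko. *Gp9*, a further subunit of the von Willebrand factor receptor, was at 14.7 and 2.20 in WT and at 36.7 and 1.47 in Cko. *Gp1ba*, the subunit of that receptor that binds von Willebrand factor, was at 3.76 and 0.478 in WT and at 3.02 and 0.127 in Cko. *Itga2b* was less uneven, at 18.8 and 4.45 in WT and at 16.2 and 4.20 in Cko.

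**Figure D3:**
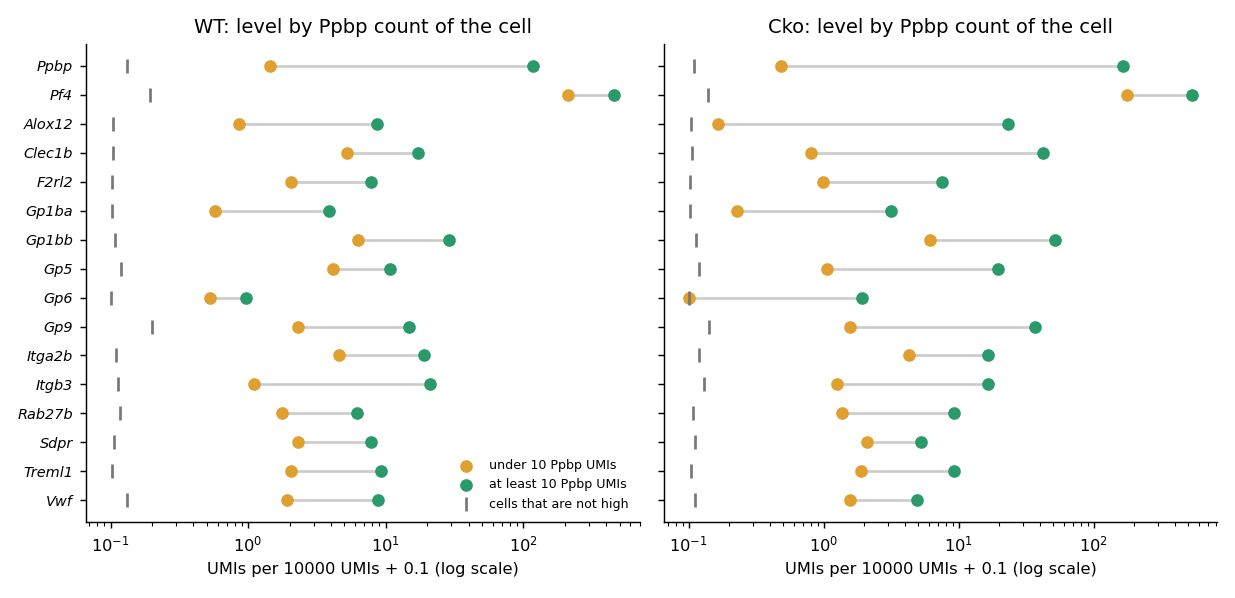
Level of each member and of 14 core megakaryocyte genes (UMIs per 10000 UMIs plus 0.1, log scale) summed over high megakaryocyte-marker cells with at least 10 (green) or under 10 (amber) *Ppbp* UMIs and over all cells that are not high (grey bars), in WT (left) and Cko (right). The green point lies to the right of the amber one for each gene shown, and *Ppbp*, which made the division, is shown for scale.

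Most granule and platelet genes were also higher. Of 12 granule cargo genes, 10 in WT and 8 in Cko were at least 2-fold higher in the rich cells on the same scale, and 0 and 1 were at least 2-fold lower. Over all genes, 9.62% in WT and 14.3% in Cko were higher by this limit, and 8.92% and 19.7% were lower. As plain ratios, *Serpine2*, a protease inhibitor, was also over 2-fold higher in Cko (2.22 and 1.02 UMIs per 10000), and *Cd63*, a tetraspanin, was also over 2-fold lower in WT (0.395 and 0.956). *Thbs1* (thrombospondin 1, released from α-granules) was at 14.7 UMIs per 10000 in the rich and 0.335 in the poor WT cells, and at 38.0 and 0.319 in Cko. *Timp3*, a metalloproteinase inhibitor, was at 12 and 1.24 in WT and at 4.94 and 1.53 in Cko, and *Vwf* was at 8.71 and 1.82 and at 4.84 and 1.47. *Srgn* (serglycin, the granule proteoglycan that binds Pf4) was nearly even in WT, at 10.3 and 8.41, and uneven in Cko, at 30.4 and 5.03. *Tgfb1* was at 7.61 and 3.44 in WT and at 14.5 and 3.95 in Cko.

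Of 16 platelet signalling and cytoskeleton genes listed in both libraries, 14 in WT and 16 in Cko were at least 2-fold higher in the rich cells on that scale. The shares over all genes were 9.62% in WT and 14.3% in Cko. *Tmsb4x* (thymosin β4, which binds actin) was the most abundant, at 438 UMIs per 10000 in the rich and 181 in the poor WT cells and at 550 and 151 in Cko. *Cd9*, a tetraspanin, was at 29.4 and 7.94 in WT and at 43.2 and 5.16 in Cko. *Gng11*, a G protein γ subunit, was at 24.3 and 7.70 in WT and at 45.5 and 2.10 in Cko. *Plek* was at 18.9 and 2.96 in WT and at 15.2 and 3.25 in Cko. *Rap1b*, a small GTPase of integrin activation, was at 20.2 and 15.4 in WT and at 38.3 and 11.8 in Cko.

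Transcription factors of the lineage did not follow this pattern as a list. Of 11 factors, 1 was at least 2-fold higher and 1 at least 2-fold lower in the rich cells of WT, and 3 and 0 were in Cko. Over all genes, 9.62% were higher and 8.92% lower by this limit in WT, and 14.3% and 19.7% were in Cko. *Mef2c* was at 3.61 and 3.16 UMIs per 10000 in WT and at 2.72 and 2.68 in Cko. *Nfe2*, needed for platelet release, was at 3.84 and 2.34 in WT and at 9.28 and 1.15 in Cko. *Gata1* was at 3.03 and 1.86 in WT and at 4.64 and 0.446 in Cko, and *Fli1* was at 2.82 and 1.29 in WT and at 2.62 and 1.59 in Cko.

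A list of 20 genes of S phase and mitosis and one of 95 ribosomal protein genes were put together after the values were seen, so their direction is a description and not independent of the choice. Of the S phase and mitosis genes, 13 in WT and 18 in Cko were at least 2-fold lower in the rich cells and none was 2-fold higher. Over all genes, 8.92% in WT and 19.7% in Cko were at least 2-fold lower. *Cdk4*, a G1 kinase, was at 1.32 UMIs per 10000 in the rich and 4.78 in the poor WT cells and at 0.504 and 4.84 in Cko. *Npm1* (nucleophosmin, a nucleolar protein) was at 4.32 and 17.4 in WT and at 3.13 and 14.5 in Cko. The ribosomal protein genes summed to 1783 UMIs per 10000 in the rich and 3089 in the poor WT cells and to 1186 and 3726 in Cko. At least 2-fold lower in the rich cells were 14 of 95 of them in WT and 79 in Cko. Cell by cell the sums overlapped in WT, from 52.1 to 3637 in rich and from 208 to 3735 in poor cells, and in Cko they ran from 143 to 2434 and from 2781 to 4601.

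Among 1208 genes with at least 100 UMIs in these cells, 996 (82.5%) differed in the same direction between rich and poor cells in both libraries. At least 2-fold higher in both were 196 genes and at least 2-fold lower in both were 105. Beyond the lists, *Tpm4* (tropomyosin 4) was at 13.5 UMIs per 10000 in the rich and 0.861 in the poor WT cells and at 24.8 and 0.764 in Cko. *Myl9*, a myosin light chain of the platelet list, was at 10.2 and 0.478 in WT, and in Cko it was found in 5 of 6 rich cells at 35.6 and in 0 of 9 poor ones. *Pdcd4*, a translation inhibitor, was furthest below the poor cells by the smaller of its 2 differences, at 0.816 and 6.45 in WT and at 0.504 and 5.16 in Cko. The ratio of the summed core genes without cells above 1000 UMIs per 10000 of the erythroid or neutrophil list was 4.43 in WT and 10.3 in Cko.

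**Figure D4:**
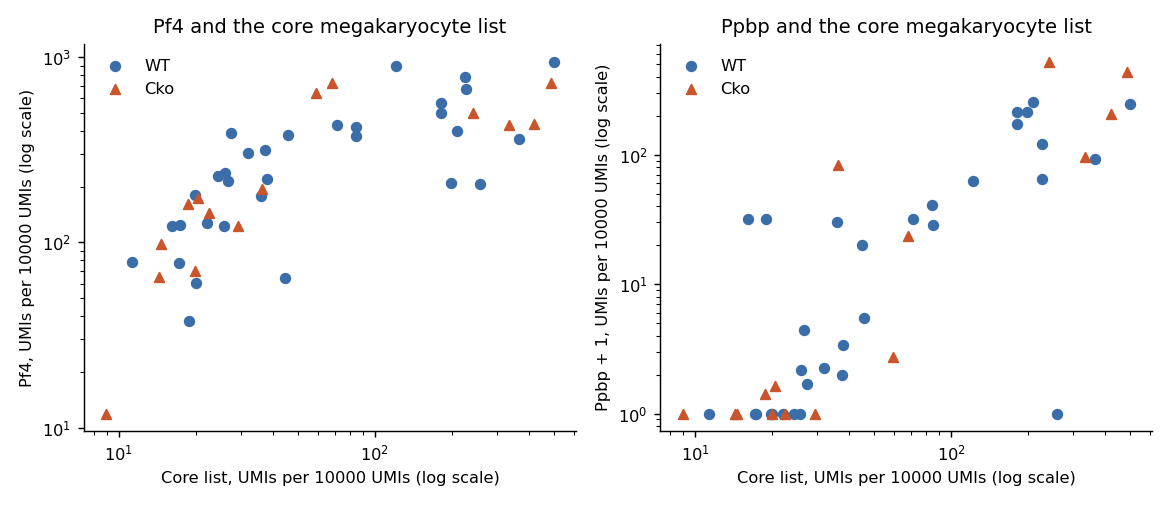
Level of *Pf4* (left) and of *Ppbp* plus 1 (right) against the summed level of 15 core megakaryocyte genes, all in UMIs per 10000 UMIs on log scales, for the 32 WT (circles) and 15 Cko (triangles) high megakaryocyte-marker cells. *Pf4* is present along the whole range of the core level, and *Ppbp* is at 0 in 9 WT and 6 Cko cells, at core levels of 29.4 or lower in all but 1 of them.

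The cell at 0 *Ppbp* and a core level of 259 UMIs per 10000 was a WT cell with 167 *Pf4* UMIs. It held 83 *Clec1b* and 53 *Gp5* UMIs, *Gp5* being a further subunit of the von Willebrand factor receptor, and none of *Gp1bb* or *Gp9*. Across all 38 WT and 20 Cko megakaryocyte-marker cells, Spearman's rho with the core level was 0.84 and 0.92 for *Pf4* and 0.78 and 0.85 for *Ppbp*. The points are cells that share a library and differ in depth.

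The genes most like the members across all cells were platelet genes. Likeness was the Pearson correlation of log-scaled levels over 6271 WT and 3662 Cko cells, and 5931 genes were ranked by the lower of the 2 values. *Gp1bb* was first for *Pf4* (r = 0.75 in both libraries) and for *Ppbp* (0.72 in both). *Treml1*, a receptor of α-granule membranes, and *Itga2b* followed for *Pf4* at lower values of 0.70 and 0.69. *Gnaz*, a G protein α subunit, and *Clec1b* followed for *Ppbp* at 0.72 and 0.71. The 10 genes for *Pf4* also held *Rbpms2*, *F2rl2*, *Rab27b* and *Gp5*, and *Ppbp* itself was the 10th at 0.58. *Pf4* ranked 12th for *Ppbp*, whose 10 genes included *Gp1ba* and *Alox12*. These values rest on the few high cells, as most cells hold no UMI of either gene.

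High cells with under 4 core genes numbered 4 in each library and held little *Ppbp*. In WT, 2 were macrophage-like, with 22 and 13 *Pf4* UMIs and no *Ppbp*, and the others held 37 and 15 *Pf4* and 1 and 0 *Ppbp* UMIs. In Cko, 2 were macrophage-like, with 18 and 10 *Pf4* UMIs and no *Ppbp*. Another Cko cell was in the stromal-like cluster with 13 *Pf4* UMIs, and the last held 10 *Pf4* and 2 *Ppbp* UMIs beside 226 UMIs per 10000 of the dendritic list. The 4 macrophage-like high cells all held C1q transcripts (*C1qa*, *C1qb* or *C1qc*, the complement genes of tissue macrophages), and their macrophage list level was 227 to 295 UMIs per 10000 in WT and 159 to 229 in Cko. The high megakaryocyte-marker cells were at 0 to 5.01 and 0 to 1.74 for that list. The dendritic list was at 257 and 95.0 UMIs per 10000 in the WT macrophage-like high cells and at 449 and 514 in the Cko ones, above the macrophage list in 3 of these 4 cells.

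The other macrophage-like cells also held *Pf4* above the level of most classes. Outside the high cells, 20 of 48 WT macrophage-like cells and 4 of 7 Cko ones held *Pf4*, at 123 (89.5 to 164) and 500 (301 to 781) CPM, where CPM is the gene's UMIs per 1000000 UMIs of the class. B cell-like cells, which are not known to express the gene, were at 6.84 (4.82 to 9.43) in WT and 2.62 (1.39 to 4.48) in Cko. *Ppbp* was found in 3 WT macrophage-like cells, at 8.18 CPM (1.69 to 23.9), against 2.77 (1.55 to 4.57) in B cell-like cells. In the Cko macrophage-like cells *Ppbp* was in 0 of 7 cells, which allows up to 97.1 CPM. The *Pf4* to *Ppbp* ratio of the WT macrophage-like cells was 15.0 (4.82 to 75.5) and rests on 3 *Ppbp* UMIs. It was 2.02 (1.58 to 2.59) in WT B cell-like and erythroid-like cells together. In WT neutrophil-like cells it was 3.21 (1.73 to 6.34) and in stromal-like cells 9.0 (2.15 to 80.0). The neutrophil-like and stromal-like intervals overlap that of the macrophage-like cells.

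Stromal-like cells also held *Pf4* above the B cell-like level. The gene was found in 11 of 29 WT and 5 of 17 Cko stromal-like cells that were not high, at 88.5 (52.4 to 140) and 65.5 (26.3 to 135) CPM, with no more than 2 UMIs in a cell. After thinning to 3000 UMIs, *Pf4* was in 31.9% of the macrophage-like (15 of 47 cells), 23.1% of the stromal-like (6 of 26) and 1.68% of the B cell-like WT cells (13 of 775). The Cko shares were 57.1% (4 of 7), 23.5% (4 of 17) and 0.551% (3 of 544). The stromal-like cells held the macrophage list at a median of 11.2 UMIs per 10000 in WT and 26.1 in Cko, and the part of this in their *Pf4* level was not tested.

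In the remaining large classes both genes were at low levels. *Pf4* was at 6.84 to 11.6 CPM in the WT B cell-like, erythroid-like and neutrophil-like cells and in the clusters led by *Mt2* and by *Ctsg*. In the same Cko classes it was at 1.78 to 3.93. *Ppbp* was at 2.06 to 3.93 in WT and, where found, at 0.403 to 1.33 in Cko. It was in 0 of 115 cells of the *Mt2*-led Cko cluster, which allows up to 1.32 CPM. Erythroid-like cells, which do not make either chemokine in quantity, held *Pf4* in 151 of 2874 WT and 9 of 462 Cko cells and *Ppbp* in 82 and 3. Shares at the level of the B cell-like and erythroid-like cells are read as background. The WT *Ctsg*-led cells were above this for *Pf4*, at 11.6 (9.59 to 13.9) against 7.64 (6.52 to 8.90) in erythroid-like cells, with a median depth of 9062 and 6288 UMIs. All 6 WT megakaryocyte-marker cells that were not high were among them. Of the cells with 3 to 9 *Pf4* UMIs, 6 of 17 in WT and 3 of 6 in Cko were macrophage-like, and 4 and 1 held at least 4 core genes. The WT ones included 1 erythroid-like cell.

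**Figure D5:**
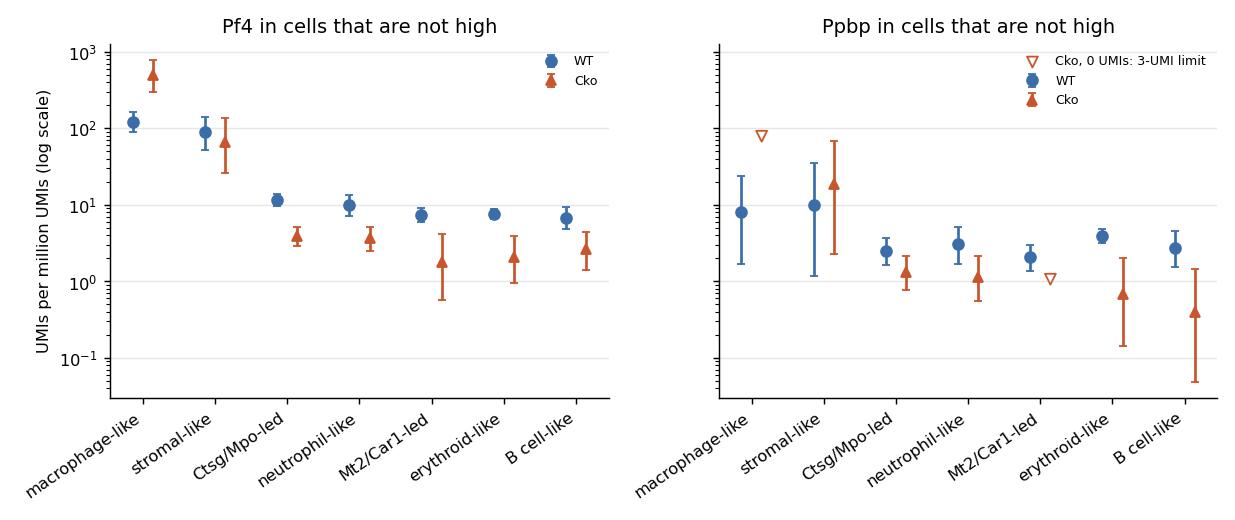
Level of *Pf4* (left) and *Ppbp* (right) in CPM (log scale) over the cells of each class that are not high, in WT (blue circles) and Cko (orange triangles), with exact 95% Poisson intervals of the counts. Open triangles mark the 3-UMI limit where no UMI was found. *Pf4* is highest in macrophage-like cells (123 in WT, 500 in Cko), and the 5 classes from *Ctsg*/*Mpo*-led to B cell-like lie between 6.84 and 11.6 in WT and between 1.78 and 3.93 in Cko.

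The low spread was smaller in Cko than in WT. Over all cells that were not high, *Pf4* was at 9.46 CPM in WT (527 UMIs) and 3.99 in Cko (136 UMIs), a Cko over WT ratio of 0.42 (0.35 to 0.51). *Ppbp* was at 3.11 (173 UMIs) and 0.997 (34 UMIs), a ratio of 0.32 (0.22 to 0.47). At 3000 UMIs per cell, 2.66% of WT (2.28 to 3.09) and 1.18% of Cko cells (0.856 to 1.59) held *Pf4*, and 0.979% (0.750 to 1.26) and 0.247% (0.113 to 0.468) held *Ppbp*. Without thinning the shares were 6.69% and 2.88% for *Pf4* and 2.69% and 0.933% for *Ppbp*. The ratio of *Pf4* to *Ppbp* in these cells was 3.05 (2.56 to 3.64) in WT and 4.0 (2.73 to 6.01) in Cko, beside 4.88 and 4.97 in the high cells.

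Among all cells, the shares of high cells in both libraries were within counting error of each other. They were 0.574% of WT (36 of 6271 cells; 0.402 to 0.794) and 0.519% of Cko cells (19 of 3662; 0.313 to 0.809), a ratio of 0.90 (0.49 to 1.62), which allows a change in either direction. Megakaryocyte-marker cells gave 0.606% (0.429 to 0.831) and 0.546% (0.334 to 0.842), a ratio of 0.90 (0.50 to 1.59). *Ppbp*-rich cells were 0.255% of WT (16 cells) and 0.164% of Cko (6 cells), a ratio of 0.64 (0.21 to 1.73). Erythroid-like cells were 2875 of the WT and 462 of the Cko cells and so weighed on these shares. Among non-erythroid cells the high cells were 1.03% of WT (35 of 3396) and 0.594% of Cko (19 of 3200), a ratio of 0.58 (0.31 to 1.04). Non-erythroid means outside the erythroid-like class. It still includes the *Mt2*-led cluster (722 WT and 115 Cko cells), whose leading genes include *Car1* of the erythroid list. With that cluster also left out, a choice made after seeing the data, the ratio was 0.48 (0.26 to 0.87). The high megakaryocyte-marker cells were 0.913% of the WT (31 cells) and 0.469% of the Cko non-erythroid cells (15 cells), a ratio of 0.51 (0.26 to 0.98), whose interval lies below 1. All megakaryocyte-marker cells, chosen without the members, had a ratio of 0.57 (0.32 to 1.01) among non-erythroid cells. For *Ppbp*-rich cells it was 0.40 (0.13 to 1.07), and both of these intervals include 1.

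Both genes had a lower level in the Cko library. Over all cells *Pf4* was at 399 CPM in WT (394 to 404) and 241 in Cko (235 to 246), a ratio of 0.60 (0.59 to 0.62). *Ppbp* was at 82.9 (80.5 to 85.3) and 48.6 (46.3 to 51.0), a ratio of 0.59 (0.55 to 0.62). Neither member passed a 2-fold limit, beside 6.1% of 5871 genes at least 2-fold lower and 8.84% at least 2-fold higher in Cko. A lower ratio than that of *Pf4* was found for 10.2% of the genes and than that of *Ppbp* for 9.35%, and the median ratio was 0.98. Of 14 core genes with at least 100 UMIs, 13 had a ratio under 1 and 3 were at least 2-fold lower, with a median of 0.55. Taken alone, sums over a library do not tell fewer cells of a type from less RNA per cell. For the members, the share of high cells and the level within them are given apart.

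These intervals count UMIs and leave out the spread between cells, which was wide. When each cell's own level was averaged with equal weight, the Cko over WT ratio was 0.73 for *Pf4* and turned to 1.29 for *Ppbp*. Without the cell with the most UMIs of the gene in each library the ratios of the sums were 0.52 and 0.51. Within the high cells the summed level of *Pf4* was 360 UMIs per 10000 in WT and 277 in Cko, a ratio of 0.77 (0.75 to 0.79), and that of *Ppbp* was 73.8 and 55.7, a ratio of 0.76 (0.71 to 0.80). The cells of both libraries overlapped, from 37.8 to 946 *Pf4* UMIs per 10000 in the WT and from 11.9 to 727 in the Cko high megakaryocyte-marker cells. The 2 highest *Ppbp* levels of any cell were in Cko, at 524 and 438 UMIs per 10000, in cells with 7956 and 9096 UMIs in all, and the highest in WT was 257.

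Receptors and neighbours of the members were read from fixed lists. *Cxcr2*, the receptor for processed Ppbp, was in 149 of 694 WT and 387 of 1220 Cko neutrophil-like cells, at 0.410 and 0.646 UMIs per 10000, and in 1 high megakaryocyte-marker cell of each library. *Ccr1*, a chemokine receptor of myeloid cells, was at 0.955 and 0.961 in neutrophil-like cells and at 0.596 and 0.501 in the *Ctsg*-led cluster. *Cxcr3* was listed for Cko only, where 31 of its 65 UMIs were in T/NK-like cells. *Cxcl5* was listed for WT only, and 26 of its 28 UMIs were in 9 high megakaryocyte-marker cells, 24 of them in *Ppbp*-rich ones. *Cxcl2* was listed for Cko only, with 15 UMIs, none in those cells. *Cxcr1*, *Cxcl1*, *Cxcl3* and *Cxcl15* had no row in either library.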

How the data were processed

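Sc-RNA-Seq was performed by the authors on BMCs of 1 WT and 1 Cko mouse with the Chromium Single Cell 3′ v2 kit, and the deposited tables hold whole-number counts of unique molecular identifiers (UMIs) per gene and cell. Cell Ranger and the GRCm38 build are named in the submitters' processing notes. The Cell Ranger version is not given in the sources used here. No gene in either table has a maximum under 4 UMIs per cell, so an absent row is not a measured 0.

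After cells under 200 genes were removed, 6271 WT and 3662 Cko cells remained. The median depth was 6977 UMIs in WT and 7440 in Cko. A cell was called high at 10 or more UMIs of *Pf4* or *Ppbp*. A megakaryocyte-marker cell held a UMI of at least 4 of 15 core megakaryocyte genes. Clusters were made over both libraries with Seurat 5.3.0 (R 4.3.3; 2000 variable genes, 20 principal components) with *Pf4*, *Ppbp* and the Stfa family left out. A cluster was named from at least 3 markers among its 25 leading genes. Doublets were called with Scrublet (scanpy 1.11.5), which marked 127 WT and 51 Cko cells. These cells were kept. Shares of other cells with a UMI of either gene were compared after each cell was thinned to 3000 UMIs, and other shares were not thinned. Intervals are exact (binomial, Poisson or conditional, 95%) and cover counting error only, and no p-value was computed because each genotype had 1 library. Ratios and intervals were tried on simulated counts that hold counting error only, so their coverage under the spread between cells was not tested.

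The members and gene lists were chosen with earlier results of these data known. Named genes were the members, the core genes, the 5 genes of each further list with the most UMIs in the high cells, the 10 genes most like each member and the 5 highest and lowest Cko over WT ratios in the high cells. Any other named gene was chosen after its values were seen. The values of 2 genes that this rule names are not reported here.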

Additional observations from a re-analysis of the deposited data

How the results depend on the processing

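In all, 17 results were recomputed under 79 alternatives, of which 55 values stayed within the counting interval, 23 moved out of it and 1 reversed. Among non-erythroid cells the WT share of high cells moved to 1.03%, and the Cko over WT ratio moved to 0.48 (0.26 to 0.87) when the *Mt2*-led cluster was left out as well, an alternative chosen after seeing the data. The *Pf4* library ratio of 0.60 moved to 0.73 with cells weighted equally, 0.59 at 500 genes per cell, 0.43 among non-erythroid cells (0.30 also without the *Mt2*-led cluster), 0.42 without high cells and 0.52 without the top cells. The *Ppbp* ratio of 0.59 reversed to 1.29 with cells weighted equally and moved to 0.42, 0.30, 0.32 and 0.51 under the other 4 changes of cells. Without thinning, 6.69% of WT and 2.88% of Cko other cells held *Pf4*, and 2.69% and 0.933% held *Ppbp*. Thinned to 2000 UMIs, the WT shares were 1.97% and 0.561%. At 3000 UMIs per cell, co-detection was 28.2% in WT and 57.9% in Cko, and Cko megakaryocyte-marker cells were 0.300%. The core gene ratio of rich to poor WT cells was 4.38 without the cell of highest core level and 3.92 after thinning, both chosen after seeing the data. The cause of these moves was not tested. No paired analysis was possible because each genotype had 1 library and no result came from a test. Depth limits single-cell zeros, and leaving out a replicate was not possible.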

Other observations

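Of 1295 genes with at least 100 UMIs in the high cells of both libraries together, the lowest Cko over WT ratios were those of *Smim1* (0.21), *Camp* (0.22), *Ngp* (0.22), *Car2* (0.24) and *Pdzk1ip1* (0.24). *Camp* and *Ngp* are neutrophil granule genes, and a single WT cell held 86.9% and 86.7% of their WT UMIs there. *Smim1* and *Car2*, which are known from red cells, were found in 17 and 30 of the 36 WT and in 9 and 12 of the 19 Cko high cells. The highest ratios were those of the MHC class II genes *H2-Ab1* (9.28), *Cd74* (8.71), *H2-Aa* (7.16) and *H2-Eb1* (6.59) and of *Cap1* (5.89). The MHC class II genes were found in 4 to 7 of the 19 Cko and in 2 to 7 of the 36 WT high cells. The dendritic list holds these genes. In the 4 Cko high cells with under 4 core genes it was at 41.4 to 514 UMIs per 10000. In the high megakaryocyte-marker cells it was at 1.99 or lower in Cko and at 5.01 or lower in WT. The MHC class II ratios therefore rest largely on a few cells with few core genes. *Cap1*, an actin regulator, was found in 14 of the 19 Cko and in 11 of the 36 WT high cells.

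The share of mitochondrial UMIs was 0.0213% in a *Ppbp*-rich Cko cell with 183 *Pf4* UMIs and 0.228% in the WT cell with neutrophil genes. The highest share in a high megakaryocyte-marker cell was 28.6%, in a *Ppbp*-rich WT cell, and the medians over all cells were 2.17% in WT and 2.01% in Cko.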
